A study of Mus musculus with 57 samples.

Results

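Livers collected 24 h after an intraperitoneal injection of carbon tetrachloride (CCl4) were compared with the livers of every vehicle-treated mouse of the series. The set comprised 24 of the 57 livers, namely the 7 labelled CCl4 (mice numbered 1, 5, 6, 8, 10, 11 and 12) and the 17 labelled as controls. All 24 mice were wild-type C57BL/6JJcl males, aged 6 weeks and then acclimatised for 1 week, and all were fasted for 12 h before dosing. Of the controls, 13 had received 0.5% methylcellulose by gavage, 2 had received 0.9% saline into the peritoneum and 2 had received 0.9% saline into a tail vein. The labels name corn oil as a further vehicle without saying which compound it carried. No corn oil liver is among these samples, and the labels give 1 dosing volume for all groups but no amount of CCl4. An effect of CCl4 and one of its solvent therefore cannot be told apart here. RNA came from a piece of the left lateral lobe of the perfused liver. The other 33 livers of the series came from mice of the same strain, age and sex given 1 of 6 other toxicants. By gavage these were thioacetamide (TAA, 5 mice), 4,4'-methylene dianiline (MDA, 7), acetaminophen (APAP, 6) and alpha-naphthyl isothiocyanate (ANIT, 4). Galactosamine (GAL, 4) went into the peritoneum and concanavalin A (ConA, 7) into a vein.

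CCl4 is a classical hepatotoxin that acts through its metabolites. The cytochrome P450 CYP2E1, which sits mainly in the hepatocytes around the central vein, splits it into radicals that attack membrane lipids and proteins, so the pericentral hepatocytes die first while those around the portal tract survive and later divide. Liver cells answer such injury through several known programmes, among them the integrated stress response, which runs through the transcription factor ATF4, the antioxidant programme of NRF2, the heat shock response and the p53 pathway.

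The libraries held from 15695791 to 27212163 estimated counts in the CCl4 mice and from 13826343 to 35075809 in the vehicle mice. Mitochondrially encoded genes took 9.43% to 14.5% of the counts in CCl4 livers and 5.11% to 25.4% in vehicle livers. The first principal component of the 24 livers carried 37.9% of the variance and separated all 7 CCl4 livers from all 17 vehicle livers. Pearson's r of log2(CPM + 1) was 0.922 to 0.965 between CCl4 livers, 0.885 to 0.968 between vehicle livers and 0.828 to 0.901 between a CCl4 and a vehicle liver, so the last 2 ranges overlapped. CPM is the usual count of a gene relative to the TMM-scaled size of its library. The intravenous saline mouse 8 and the intraperitoneal saline mouse 8 lay apart from the other vehicle mice on the second and the third component, and the gavage mouse 18 had the highest level of neutrophil and acute phase genes among the controls. Without both saline mice numbered 8, 7827 genes were called against the remaining 15 vehicle mice, beside 7582 against all 17. No 2 columns were identical. Nothing states that the mice came from separate litters or cages, so the p-values measure the spread between these mice.

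Against all 17 vehicle mice, 7582 of 14209 genes (53.4%) passed edgeR's quasi-likelihood test at an adjusted p under 0.05, of which 3722 (26.2%) were higher and 3860 (27.2%) lower in CCl4. Against the 2 intraperitoneal saline mice, which shared the route, 5152 of 15365 genes (33.5%) passed, 2759 (18%) higher and 2393 (15.6%) lower. Of the 14137 genes tested in both, 4770 (33.7%) passed both tests with 1 sign, 2478 (17.5%) higher and 2292 (16.2%) lower, and 0 passed both with opposite signs. They were 62.9% of the genes called against all vehicles and 92.6% of those called against intraperitoneal saline. Below, a gene that rose or fell without further comment is one of these 4770. Counts of list members that rose or fell in both comparisons stand beside these 17.5% and 16.2% of all genes. The 7 CCl4 mice are the same in both comparisons and the 2 saline mice are among the 17, so the agreement is not independent. Against the other 15 vehicle mice, which shared no control with the saline comparison, 7397 genes were called. Of these, 4677 were also called against saline with the same sign and 0 with the opposite sign. The 7 CCl4 mice were again the same in both.

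**Figure D1:**
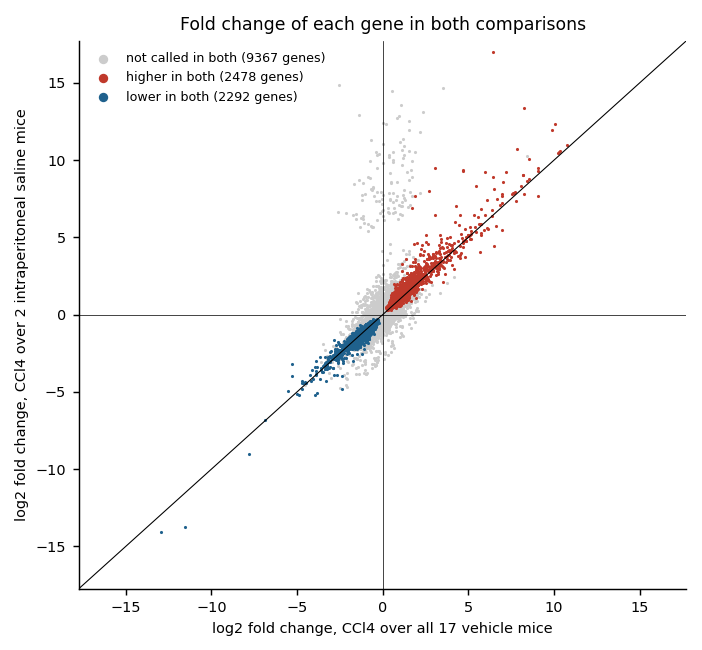
Each point is 1 of the 14137 genes tested in both comparisons, placed by its log2 fold change in CCl4 over the 17 vehicle mice (horizontal) and over the 2 intraperitoneal saline mice (vertical), with the line of equality. The 2478 genes higher in both (red) and the 2292 lower in both (blue) lie in opposite corners, and the points high above the line have a larger fold change against the 2 saline mice than against all vehicles.

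The saline comparison rests on 2 mice, and without the intraperitoneal saline mouse 8 it called 3015 genes, 2859 of them in both. When either saline mouse is left out, 1 control library remains and is assumed to vary like the CCl4 mice, so the test is less precise there. Each named gene that lost its call in this way kept its direction. When libraries were scaled to their totals instead of by TMM, the median log2 fold change over all genes moved from -0.01 to 0.52 against all vehicles and from 0.10 to 0.53 against saline. The split then became 7149 higher and 1736 lower against all vehicles, 4565 and 1100 against saline, and 4349 and 1030 in both. The balance of rises and falls therefore depends on the scaling. List medians and counts given below with library totals carry this shift of all genes.

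The enzyme that activates CCl4 was itself among the strongest falls. Cyp2e1 lay from 138 to 286 CPM (median 228) in the 7 CCl4 mice and from 1759.6 to 3391 CPM (median 2637) in the 17 vehicle mice, with 2637 and 2439 CPM in the 2 intraperitoneal saline mice. Every CCl4 mouse lay far below every control. The log2 fold change was -3.57 ± 0.16 (SE, n = 7 and 17, adjusted p = 1.06e-15) against all vehicles and -3.46 ± 0.20 (adjusted p = 6.11e-06) against saline. Glul, glutamine synthetase, which marks the innermost layer of pericentral hepatocytes, lay from 16.1 to 26.8 CPM (median 23.8) in CCl4 livers and from 325 to 657 CPM (median 487) in vehicle livers, a log2 fold change of -4.51 ± 0.14 (adjusted p = 1.26e-18). The groups were again far apart. In bulk tissue, fewer cells of a type and less RNA per cell cannot be told apart. Oat and Slc1a2, which encode an ornithine aminotransferase and a glutamate transporter of the same cells, had log2 fold changes of -3.26 and -3.48.

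Of the 30 listed pericentral and bioactivation genes, 2 rose and 22 fell in both comparisons, with a median log2 fold change of -1.71 against all vehicles beside -0.01 over all genes. In 19 of them all 7 CCl4 mice lay below all 17 controls, as did 8.98% of all genes tested. Cyp3a11, a major drug-metabolising P450, lay from 228 to 541 CPM (median 352) in CCl4 and from 773 to 2402 CPM (median 1425) in vehicle mice (log2 fold change -1.92), and was not called against saline without mouse 7 (edgeR's adjusted p = 0.0976). Lgr5, a receptor that amplifies Wnt signals around the central vein, fell by 2.12. Other members moved differently. Cyp1a2, also pericentral, was lower against all vehicles (-0.44, adjusted p = 0.00887) and not called against saline (-0.32, adjusted p = 0.317), and its groups overlapped. With library totals its value against all vehicles was 0.12. Cyp2a5, the coumarin hydroxylase, rose, lying from 409 to 982 CPM (median 509) in CCl4 and from 203 to 508 CPM (median 317) in vehicle mice (0.93). Against saline the log2 fold change was 1.40 without mouse 7 and 1.36 without mouse 8, and neither passed (edgeR's adjusted p = 0.104 and 0.1286). Gstm1, a glutathione transferase, lay from 1495 to 2187 CPM (median 1885) in CCl4 and from 1375 to 3157 CPM (median 2056) in vehicle mice and was not called in either comparison.

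Several P450 genes of the Cyp2c and Cyp2b families were among the 15 largest falls taken by the rule for named genes, with the reservation that reads of such near-identical paralogs may be split between them. Cyp2c37 lay from 6.18 to 10.4 CPM (median 9.33) in CCl4 and from 66.0 to 199.8 CPM (median 121) in vehicle mice (-3.85 ± 0.22). Cyp2c38, Cyp2c40, Cyp2c69 and Cyp2b9 had log2 fold changes of -4.64, -4.14, -3.94 and -4.26. Without saline mouse 8, Cyp2b9 was not called against saline (-2.95, edgeR's adjusted p = 0.1296). Of 30 phase II genes, 4 rose and 14 fell in both comparisons (median -0.80). Ugt1a1, which conjugates bilirubin, lay from 59.2 to 80.0 CPM (median 69.9) in CCl4 and from 209 to 305 CPM (median 248) in vehicle mice (-1.86), and Mgst1, a microsomal glutathione transferase, fell by 1.19. Sult2a8, a sulfotransferase, had the largest fall of the list (-3.01). In the other direction, Gsta1, a glutathione transferase that conjugates lipid peroxidation products, rose, lying from 422 to 631 CPM (median 496) in CCl4 and from 5.62 to 88.8 CPM (median 27.5) in vehicle mice (3.79 ± 0.38, adjusted p = 3.75e-09), with the paralog reservation. Gstp1, another glutathione transferase, rose by 0.47 and was not called against saline without mouse 8 (edgeR's adjusted p = 0.2207).

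Of 20 listed periportal genes, 0 rose and 17 fell in both comparisons, with a median of -1.48. Ass1, a urea cycle enzyme, lay from 624 to 1152 CPM (median 832) in CCl4 and from 2145 to 6421 CPM (median 2977) in vehicle mice (-1.84 ± 0.19, adjusted p = 7.16e-09). Sds, serine dehydratase, fell by 2.47 and Cyp2f2, the periportal P450, by 2.03, both with no overlap between the groups. Cps1, the first enzyme of the urea cycle, fell by 0.93. It was not called against saline without mouse 7 (-0.38, edgeR's adjusted p = 0.1602) or with library totals (-0.42, edgeR's adjusted p = 0.1682). The difference between the medians of the pericentral and the periportal list was not tested.

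**Figure D2:**
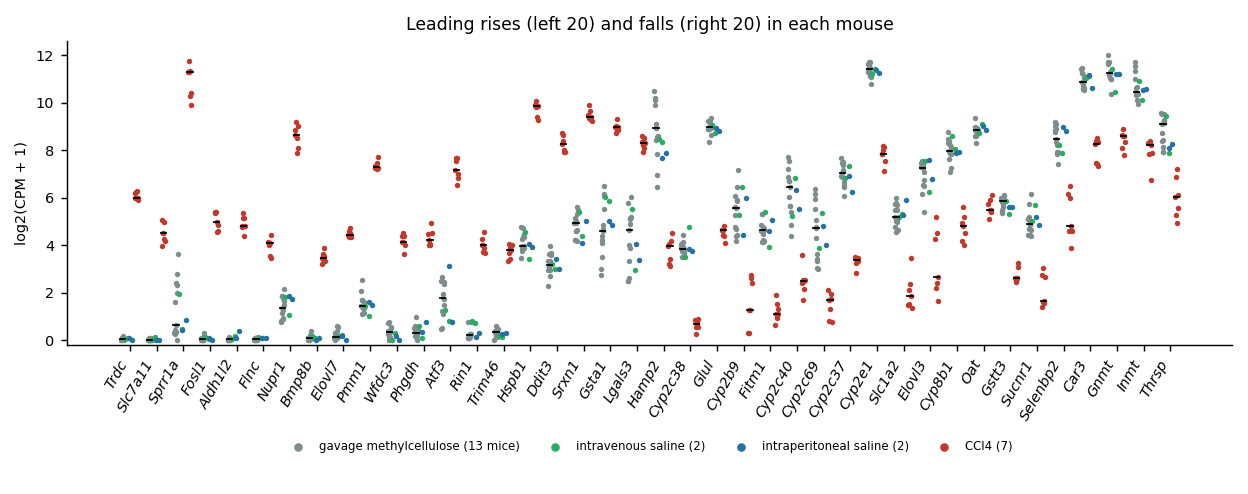
Each point is 1 mouse, in log2(CPM + 1), for the 20 rises and the 20 falls chosen by rule, with black bars at the medians of the gavage and the CCl4 mice. All 7 CCl4 mice (red) lie on 1 side of all 17 vehicle mice in each gene, as the rule required, and the saline mice (green and blue) lie on the side of the gavage mice (grey).

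The leading rises were genes that were nearly silent in the control livers. Sprr1a, a small proline-rich protein of the cornified envelope of skin, lay from 946 to 3409.9 CPM (median 2491) in CCl4 mice and from 0 to 11.3 CPM (median 0.541) in vehicle mice, with 0.347 and 0.790 CPM in the saline mice. Its log2 fold change was 9.86 ± 0.76 (adjusted p = 3.79e-11). Nupr1, a small nuclear stress protein, lay from 235 to 579 CPM (median 403) in CCl4 and from 0.679 to 3.44 CPM (median 1.78) in vehicle mice (7.76 ± 0.27, adjusted p = 1.57e-17). Slc7a11, the cystine transporter that feeds glutathione synthesis, lay from 14.7 to 32.2 CPM (median 21.6) in CCl4 mice. It had 6 counts in all over the 17 vehicle mice and 0 in both intraperitoneal saline mice, so its mean was at least 138-fold higher than in the saline mice, with 3 counts per library taken as the floor. Fosl1, a partner of Jun in the AP-1 factor, lay from 22.2 to 41.3 CPM (median 30.4) and from 0 to 0.225 CPM (median 0.0451) (9.05). Flnc, the muscle filamin, lay from 10.1 to 20.7 CPM (median 15.9) in CCl4 mice and had at most 3 counts in any vehicle mouse. Trdc, the constant segment of the T cell receptor delta chain, lay from 58.5 to 76.8 CPM (median 63.0) in CCl4 mice, with 18 counts in all over the vehicle mice. Cd3e, part of the receptor complex that T cells need to carry that chain, lay from 0 to 0.560 CPM (median 0.268) in CCl4 and from 0.0732 to 1.64 CPM (median 0.351) in vehicle mice and was not called. Whether the Trdc reads came from T cells was not tested.

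The other leading rises covered several functions. Pmm1, a phosphomannomutase, lay from 145 to 208 CPM (median 154) in CCl4 and from 1.02 to 4.80 CPM (median 1.72) in vehicle mice (6.39). Elovl7, a fatty acid elongase, rose by 6.95, Bmp8b, a BMP family ligand, by 7.02, and Wfdc3, a protein with a protease inhibitor fold, by 6.09. Rin1, a Ras effector, and Trim46, a microtubule-associated protein, rose by 5.74 and 5.72. Lgals3, the lectin galectin-3, lay from 239.6 to 383 CPM (median 314) and from 4.57 to 63.7 CPM (median 15.8) (3.69).

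The integrated stress response had the highest median log2 fold change of the 44 lists against all vehicles. Against saline its median was 2.27, below the 3.55 of the 12 neutrophil markers tested there, low-count genes that could pass the filter through CCl4 alone. Of 29 tested members, 23 rose and 3 fell in both comparisons, with a median of 2.10 against all vehicles. Ddit3, the death-promoting factor CHOP, lay from 239.99 to 421 CPM (median 304) in CCl4 and from 3.88 to 14.4 CPM (median 8.08) in vehicle mice (5.17 ± 0.17, adjusted p = 4.19e-18). Atf3, a factor induced by ATF4, lay from 92.8 to 201 CPM (median 143) and from 0.366 to 7.61 CPM (median 2.31) (5.76 ± 0.41, adjusted p = 7.35e-12). Trib3, a pseudokinase that restrains ATF4, rose by 3.57. Enzymes of serine and one-carbon metabolism were among them. Aldh1l2, the mitochondrial formyltetrahydrofolate dehydrogenase, lay from 19.8 to 39.9 CPM (median 27.4) in CCl4 and from 0 to 0.316 CPM (median 0.0396) in vehicle mice (9.04), and Phgdh, the first enzyme of serine synthesis, rose by 5.92. Atf4 itself lay from 96.9 to 132 CPM (median 111) in CCl4 and from 36.9 to 85.3 CPM (median 55.6) in vehicle mice (0.97). Fgf21, a stress hormone of the liver, rose by 1.97 with overlapping groups. Ddit4, an inhibitor of mTORC1, fell by 1.28 and was not called against saline without mouse 7 (edgeR's adjusted p = 0.1022) or with library totals (edgeR's adjusted p = 0.067). Atf5, another factor of this response, lay from 208 to 242 CPM (median 230.2) in CCl4 and from 137 to 489 CPM (median 218) in vehicle mice and was not called.

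Promoters of these genes were searched for the letters TGATGNAA on either strand, the core of the composite C/EBP-ATF site through which ATF4 and CHOP act. RefSeq's table of promoters (build GRCm38.p6, 250 bases before and 50 after each start) held 25 of the 30 listed genes, and 8 of these (32%) held the motif in at least 1 promoter, beside 4.51% of the 27025 genes of the table. Of the 25 matched genes, 19 had risen in both comparisons, among them all 8 with the motif. A match is a description of the letters and not of binding. Stretches of 100 bases upstream of the start of 3 listed genes and of Slc7a11 are shown because these genes rose and carry the motif, on the minus strand of the genome in all 4 cases, written 5′ to 3′ along the gene with the motif in capitals.
Nupr1, chr7:126625527-126625626: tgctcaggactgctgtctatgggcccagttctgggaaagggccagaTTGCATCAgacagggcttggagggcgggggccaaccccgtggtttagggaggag
Atf3, chr1:191183390-191183489: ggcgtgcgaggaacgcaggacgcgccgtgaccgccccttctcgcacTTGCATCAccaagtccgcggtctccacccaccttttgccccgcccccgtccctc
Fgf21, chr7:45615576-45615675: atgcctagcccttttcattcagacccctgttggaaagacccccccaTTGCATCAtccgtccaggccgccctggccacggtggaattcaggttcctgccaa
Slc7a11, chr3:50443617-50443716: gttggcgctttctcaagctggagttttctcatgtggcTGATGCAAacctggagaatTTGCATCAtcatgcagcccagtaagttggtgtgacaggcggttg
Slc7a11 held 2 matches in opposite orientation within these 100 bases, and the other 3 held 1 each. Searched in the same way, the AP-1 site TGANTCA was in the promoters of 0 of 23 matched immediate early genes, beside 8.97% of all genes of the table, and the sterol element TCACNCCAC in those of 1 of 16 matched cholesterol genes (6.25%), beside 1.44%.

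The antioxidant programme was called in part. Of 28 tested NRF2 target genes, 14 rose and 1 fell in both comparisons, with a median of 0.35. Library totals gave 22 higher and 1 lower against all vehicles. Srxn1, sulfiredoxin, which repairs oxidised peroxiredoxins, lay from 595 to 947 CPM (median 681) in CCl4 and from 16.1 to 48.1 CPM (median 29.7) in vehicle mice (4.62 ± 0.18, adjusted p = 1.65e-16). Abcc4, an efflux pump of the basolateral membrane, lay from 36.3 to 57.8 CPM (median 47.1) and from 0.494 to 1.45 CPM (median 1.08) (5.41 ± 0.13, adjusted p = 4.97e-21). Smaller rises were those of Hmox1, heme oxygenase (1.41), Gclc, the catalytic subunit of glutathione synthesis (0.82), and Nqo1, a quinone reductase (0.50). Against saline, edgeR's adjusted p of Gclc was 0.1968 without saline mouse 7 and 0.1872 without mouse 8, and that of Nqo1 0.1078 without mouse 8. Gclc also lost this call without CCl4 mouse 5, 8, 11 or 12 (edgeR's adjusted p from 0.05134 to 0.07183) and with RLE size factors (edgeR's adjusted p = 0.05494). Gclm, the partner subunit of Gclc, lay from 368 to 448 CPM (median 411) in CCl4 and from 329 to 579 CPM (median 442) in vehicle mice and was not called. Ftl1, the ferritin light chain, was not called either, lying from 4394 to 6689 CPM (median 5439.7) and from 2851 to 7409 CPM (median 4745). Abcc3, a related efflux pump, fell by 1.02. The core of the antioxidant response element, TGACNNNGC on either strand, was in the promoters of 9 of 23 matched members (39.1%), beside 14% of all genes of the table. It was also in those of 8 of 25 genes of the integrated stress response list (32%), 6 of 23 immediate early genes (26.1%), 4 of 16 cholesterol genes (25%) and 4 of 22 G1 and replication genes (18.2%). Of the 11 matched members that rose in both, 4 held it. The 100 bases upstream of a start of Abcc4 (minus strand, chr14:118706220-118706319) hold 1 match, in capitals.
Abcc4: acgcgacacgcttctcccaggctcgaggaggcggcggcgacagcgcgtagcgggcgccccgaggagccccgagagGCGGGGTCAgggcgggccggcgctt

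Of 20 heat shock genes, 16 rose and 0 fell in both comparisons (median 1.08). Hspb1, a small heat shock protein, lay from 608 to 1068 CPM (median 919) in CCl4 and from 9.56 to 25.9 CPM (median 14.6) in vehicle mice (5.67 ± 0.17, adjusted p = 6.5e-19). Hspa8, the constitutive HSP70, rose by 2.02 and Hsp90aa1, the inducible cytosolic HSP90, by 2.80. Hspa1a lay from 0.219 to 1.86 CPM (median 0.644) in CCl4 and from 0.176 to 1.64 CPM (median 0.942) in vehicle mice and Hspa1b from 2.38 to 13.4 CPM (median 7.93) and from 2.62 to 26.2 CPM (median 7.66), and neither was called in either comparison. Of 20 chaperones and folding factors of the endoplasmic reticulum, 16 rose and 1 fell (median 0.99). Derl3, a component of ER-associated degradation, rose, lying from 26.2 to 44.0 CPM (median 32.1) in CCl4 and from 0.463 to 9.15 CPM (median 1.75) in vehicle mice (3.39), and Hsp90b1, the ER HSP90, rose by 1.42. Calr, calreticulin, rose by 0.53. Against saline, Calr was not called without mouse 7 (0.39, edgeR's adjusted p = 0.1408), nor Hsp90b1 without mouse 8 (1.71, edgeR's adjusted p = 0.05243). Herpud1, a degradation factor of the same compartment, fell by 0.60. Its call against all vehicles was lost without CCl4 mouse 1, 5, 6, 8 or 12 (edgeR's adjusted p from 0.05346 to 0.08148) and with library totals (-0.07, adjusted p = 0.8338), and against saline without mouse 7 (adjusted p = 0.2928). Xbp1, a factor of the unfolded protein response, was not called.

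Of 25 ribosome biogenesis genes, 24 rose and 0 fell in both comparisons, with a median of 1.40, and in 21 of them all 7 CCl4 mice lay above all 17 controls, as did 9.06% of all genes tested. Npm1, nucleophosmin, lay from 83.0 to 212 CPM (median 150.1) in CCl4 and from 13.996 to 69.9 CPM (median 31.5) in vehicle mice (2.21 ± 0.22, adjusted p = 3.73e-09). Nop58, a core protein of small nucleolar particles, rose by 2.39. Polr1a, the large subunit of RNA polymerase I, was the member not called in either comparison. Of 30 ribosomal protein genes, 28 rose and 0 fell, by a smaller median of 0.71. Rpl5 rose by 1.13 and was not called against saline without mouse 8 (edgeR's adjusted p = 0.1005). Rps2 was higher by 0.37 against all vehicles (adjusted p = 0.0101) and not called against saline (0.33, adjusted p = 0.108). Of 30 proteasome genes, 8 rose and 0 fell (median 0.11). With library totals there were 29 higher and 0 lower against all vehicles and 22 higher and 0 lower against saline, with medians of 0.63 and 0.64. Psmd8, a lid subunit, rose by 1.10.

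Of 30 genes of the G1 phase and of DNA replication, 15 rose and 3 fell in both comparisons (median 0.97). Ccnd1, cyclin D1, which drives cells out of rest, lay from 25.0 to 39.9 CPM (median 33.7) in CCl4 and from 4.04 to 13.5 CPM (median 7.25) in vehicle mice (2.03 ± 0.18, adjusted p = 6.75e-10). Ccne1, cyclin E1, rose by 2.55 and Mcm6, a subunit of the replicative helicase, by 1.84. Mcm6 lay from 8.82 to 12.8 CPM (median 10.9) in CCl4 and from 2.05 to 5.08 CPM (median 2.82) in vehicle mice. Uhrf1, which maintains DNA methylation at the fork, rose by 2.59 and Pcna, the sliding clamp, by 0.66. Tk1, thymidine kinase, lay from 9.22 to 20.6 CPM (median 15.2) in CCl4 and from 30.8 to 59.7 CPM (median 42.5) in vehicle mice and fell by 1.59. Mitotic genes had low counts. Of the 30 listed, 20 passed the filter on low counts against all vehicles, and 9 of these rose in both comparisons; a gene silent in both groups could not enter, so this count is no more than a description. The list summed from 17.6 to 33.9 CPM in CCl4 and from 7.47 to 17.5 CPM in vehicle mice. Mki67, a marker of proliferation, lay from 0.349 to 1.25 CPM (median 0.520) and from 0.0579 to 0.802 CPM (median 0.0790), and Cdk1, the mitotic kinase, from 2.30 to 4.84 CPM (median 2.90) and from 0.802 to 3.60 CPM (median 1.41), with overlapping groups in both genes. Against saline, Mki67 lost its call without either saline mouse and Cdk1 without mouse 8.

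The core E2F site, TTTNNCGC on either strand, was in the promoters of 11 of 22 matched G1 and replication genes (50%), beside 5.93% of all genes of the table. Of the 12 matched members that rose in both, 8 held it. The 100 bases upstream of the start of Mcm6 (minus strand, chr1:128359731-128359830, 3 matches, of which 2 overlap on opposite strands) and of Uhrf1 (plus strand, chr17:56303235-56303334, 1 match) are shown with the motif in capitals, since these genes rose.
Mcm6: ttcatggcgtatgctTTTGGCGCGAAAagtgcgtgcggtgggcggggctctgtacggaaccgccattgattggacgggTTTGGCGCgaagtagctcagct
Uhrf1: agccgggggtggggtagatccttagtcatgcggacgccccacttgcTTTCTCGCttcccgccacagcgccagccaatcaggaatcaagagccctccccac

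Of 24 p53 target genes tested in both, 12 rose and 3 fell (median 1.05). Cdkn1a, the p21 inhibitor of the cell cycle, lay from 43.9 to 70.3 CPM (median 56.4) in CCl4 and from 3.86 to 24.7 CPM (median 13.962) in vehicle mice (2.03 ± 0.25), and Mdm2, which degrades p53, rose by 1.27. Eda2r, a receptor of the TNF family, had the largest rise of the list (3.54), and Ei24, an ER protein, the largest fall (-1.29). Against saline, Eda2r was not called without mouse 7 (1.92, edgeR's adjusted p = 0.1024), nor Mdm2 without mouse 8 (0.95, edgeR's adjusted p = 0.162). Bax, a pore-forming death protein, rose against all vehicles (1.59, adjusted p = 9.26e-05) and was not called against saline (0.81, adjusted p = 0.0998). One of the 2 saline mice lay at 121 CPM, within the CCl4 range. Gdf15, a stress cytokine, lay from 21.4 to 46.4 CPM (median 31.3) in CCl4 and from 3.89 to 127 CPM (median 29.3) in vehicle mice and was not called.

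Of 29 tested immediate early genes, 14 rose and 5 fell in both comparisons (median 0.84). Myc, a driver of growth and of ribosome genes, lay from 39.1 to 64.2 CPM (median 45.9) in CCl4 and from 1.51 to 13.2 CPM (median 3.01) in vehicle mice (3.82 ± 0.28, adjusted p = 1.04e-11), and Fosl1 and Atf3 rose as given above. Fos, Egr1 and Zfp36, which are induced within minutes of a stimulus, fell by 1.58, 1.35 and 1.79. Fos lay from 1.08 to 8.45 CPM (median 5.83) in CCl4 and from 0.555 to 42.2 CPM (median 10.7) in vehicle mice, and in all 3 genes the groups overlapped. Without the intraperitoneal saline mouse 7, the log2 fold change of Fos against saline was -0.17, and neither Fos nor Egr1 was called there. Fos lost its call against all vehicles without CCl4 mouse 1, 8 or 10 and that against saline without CCl4 mouse 6, 8 or 10, and Egr1 its call against saline without CCl4 mouse 6 or 12. With library totals Fos and Egr1 were called in neither comparison. Jun, the partner of Fos, was not called, lying from 22.9 to 49.8 CPM (median 32.0) in CCl4 and from 4.64 to 73.9 CPM (median 27.7) in vehicle mice.

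Of 30 genes of the cytoskeleton and of membrane repair, 16 rose and 2 fell in both comparisons (median 0.99). Anxa3, an annexin, lay from 49.7 to 69.0 CPM (median 57.3) in CCl4 and from 3.04 to 7.34 CPM (median 4.53) in vehicle mice (3.61 ± 0.13). Tubb6, a beta tubulin, rose by 2.96 and S100a11, a calcium-binding partner of annexins, by 3.08, while S100a13 fell by 1.21 and was not called against saline with library totals (edgeR's adjusted p = 0.09504). Actb, beta-actin, was not called, lying from 498 to 873 CPM (median 699) in CCl4 and from 331 to 833 CPM (median 636) in vehicle mice.

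Of 25 genes of secreted plasma proteins, 0 rose and 19 fell in both comparisons, with a median of -1.32. The list summed from 59766 to 79417 CPM in CCl4 and from 130377 to 259912 CPM in vehicle mice, which did not overlap. Alb, albumin, lay from 9251 to 19617 CPM (median 15231) in CCl4 and from 24098 to 75638 CPM (median 42618) in vehicle mice (-1.54 ± 0.19, adjusted p = 1.59e-07). Ttr and Apoa1, which carry thyroid hormone and cholesterol, fell by 1.51 and 1.53, and Serpina6, which binds corticosteroids, by 1.96. Of 25 coagulation and complement genes, 1 rose and 19 fell (median -1.18). Serpinc1, antithrombin, and Proc, protein C, fell by 1.41 and 1.55.

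Of 24 tested acute phase genes, 6 rose and 3 fell in both comparisons, beside 17.5% and 16.2% of all genes. The median was -0.23, or 0.29 with library totals, beside -0.01 and 0.52 over all genes. Library totals gave 12 higher and 1 lower against all vehicles, beside 7149 and 1736 of all 14209 genes. Against saline they gave 9 higher and 0 lower. Il1rn, the interleukin-1 receptor antagonist, lay from 49.4 to 66.7 CPM (median 56.9) in CCl4 and from 0.586 to 11.3 CPM (median 2.92) in vehicle mice (4.16 ± 0.35, adjusted p = 1.86e-10). Saa1 and Lcn2, serum amyloid A and lipocalin-2, rose by 2.27 and 2.02, but the gavage mouse 18 reached 711 CPM of Lcn2, above every CCl4 mouse. Hp, haptoglobin, lay from 3816 to 6605 CPM (median 5212) in CCl4 and from 2690.2 to 7659 CPM (median 4461) in vehicle mice and was not called. Crp, C-reactive protein, fell by 0.98 and was not called against saline without mouse 7 or with library totals (edgeR's adjusted p = 0.08429 and 0.1024). Of 20 metallothionein and iron genes, 6 rose and 4 fell in both comparisons (median 0.27). Among the falls, Hamp2 lay from 7.74 to 21.6 CPM (median 14.6) in CCl4 and from 86.8 to 1441 CPM (median 369) in vehicle mice (-5.29 ± 0.57, adjusted p = 1.66e-08), and its near-identical copy Hamp, hepcidin, which limits iron uptake, fell by 1.02. Hamp was not called against saline without mouse 8 or with library totals (edgeR's adjusted p = 0.1173 and 0.1598). How their shared reads were divided is not stated. Bmp6, a ligand that induces hepcidin, lay from 6.51 to 10.8 CPM (median 8.42) in CCl4 and from 1.03 to 2.29 CPM (median 1.82) in vehicle mice (2.20).

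Of 20 transcription factors that define hepatocytes, 0 rose and 11 fell in both comparisons (median -0.84). With library totals the median was -0.31, with 4 higher and 10 lower against all vehicles and 2 higher and 5 lower against saline. Cebpa, a C/EBP factor of mature hepatocytes, lay from 27.4 to 40.5 CPM (median 31.1) in CCl4 and from 71.0 to 168 CPM (median 116) in vehicle mice (-1.86 ± 0.13, adjusted p = 4.6e-12). Hnf4a, the central factor of hepatocyte identity, fell by 0.84 and Nr1h4, the bile acid receptor FXR, by 1.18, each with no overlap between the groups. With library totals neither was called against saline (edgeR's adjusted p = 0.1433 and 0.08219), and Nr1h4 was not called there without mouse 7 (edgeR's adjusted p = 0.1163). Of 24 tested genes driven by growth hormone, 1 rose and 16 fell (median -1.57). Ghr, the receptor, fell by 1.86, Igf1, the circulating growth factor it controls, by 1.19 and Stat5b, its signal transducer, by 0.92. Igf1 was not called against saline without mouse 7 or with library totals (edgeR's adjusted p = 0.06954 and 0.06231). Socs3, an inhibitor of cytokine signals, was the member that rose (1.11, adjusted p = 0.0305). Without CCl4 mouse 1 or 12 its adjusted p by edgeR against all vehicles was 0.06197 or 0.08621, and against saline it was 0.1968 without mouse 7 and 0.05092 without mouse 8.

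Of 26 fatty acid oxidation genes, 1 rose and 21 fell in both comparisons (median -1.30). Fabp1, the liver fatty acid binding protein, and Cpt1a, which admits fatty acids to mitochondria, fell by 1.75 and 1.41. The exception was Acot2, a mitochondrial acyl-CoA thioesterase, which lay from 10.1 to 19.6 CPM (median 14.6) in CCl4 and from 0.711 to 2.31 CPM (median 1.58) in vehicle mice (3.10). Of 20 fatty acid synthesis genes, 0 rose and 14 fell (median -1.26), among them Thrsp (-2.72), a lipogenic nuclear protein, and Srebf1 (-1.69), the lipogenic transcription factor. Without saline mouse 7 or 8, edgeR's adjusted p of Thrsp against saline was 0.05002 or 0.07699, at log2 fold changes of -2.06 or -1.92. Of 24 genes of cholesterol synthesis and uptake, 0 rose and 14 fell (median -1.03). Library totals gave 1 higher and 10 lower against all vehicles and 1 higher and 7 lower against saline. Sqle, squalene epoxidase, was not called against all vehicles and was higher against saline (0.89, adjusted p = 0.00601).

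All 18 of the 18 bile acid synthesis genes were lower against all vehicles, and 16 fell in both comparisons (median -1.25). Cyp8b1, the sterol 12-hydroxylase, lay from 14.9 to 47.8 CPM (median 26.8) in CCl4 and from 136 to 432 CPM (median 250.1) in vehicle mice (-3.31 ± 0.25, adjusted p = 2.31e-11), and Baat, which joins bile acids to taurine, fell by 2.07. Cyp7a1, the rate-limiting enzyme, lay from 2.81 to 67.6 CPM (median 20.2) in CCl4 and from 2.53 to 556 CPM (median 82.7) in vehicle mice. It was lower against all vehicles (-2.13, adjusted p = 0.021) and not called against saline (-0.74, adjusted p = 0.634), where the 2 mice lay at 89.2 and 2.53 CPM. The call against all vehicles was lost with limma (adjusted p = 0.07766) and, by edgeR, with library totals (adjusted p = 0.06026), among mice numbered 5 to 12 (adjusted p = 0.08568) and against the 4 saline mice alone (adjusted p = 0.3388). All 12 of 12 uptake transporters were lower against all vehicles, and 11 fell in both (median -1.79). Slc27a2, a fatty acid transporter, fell by 1.86. Of 17 tested efflux transporters, 2 rose, Abcc4 among them, and 7 fell, among them Abcb11, the bile salt export pump (-0.98), and Abcc6, a related transporter (-1.94). Abcb11 was not called against saline without mouse 7 or with library totals (edgeR's adjusted p = 0.05959 and 0.1833). With library totals the median of the list against saline was 0.02, in place of -0.40.

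Of 18 tested lipid droplet genes, 6 rose and 5 fell in both comparisons (median against saline -0.27, or 0.16 with library totals). Plin2, the droplet coat protein, lay from 604 to 824 CPM (median 718) in CCl4 and from 175 to 343 CPM (median 220.3) in vehicle mice (1.58 ± 0.11, adjusted p = 3.89e-12), and Cidec, which fuses droplets, rose by 3.02. Fitm1, a droplet-forming protein of the ER, lay from 0.538 to 2.72 CPM (median 1.14) in CCl4 and from 14.3 to 41.7 CPM (median 23.6) in vehicle mice and fell by 4.20. Of 25 glucose metabolism genes, 3 rose and 8 fell in both comparisons (median -0.33). Pck1, which starts gluconeogenesis, fell by 1.71, and Slc2a1, the glucose transporter GLUT1, rose by 1.59. Above a vehicle mean of 200 CPM, other large falls were those of Gnmt, glycine N-methyltransferase (-2.85), Car3, a carbonic anhydrase (-2.97), Inmt, an indole methyltransferase (-2.74), and Selenbp2, a selenium-binding protein (-3.11). Elovl3, a fatty acid elongase, Gstt3, a glutathione transferase, and Sucnr1, the succinate receptor, fell by 3.39, 3.22 and 3.20. Without saline mouse 7, Elovl3 was not called against saline (edgeR's adjusted p = 0.07459).

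**Figure D3:**
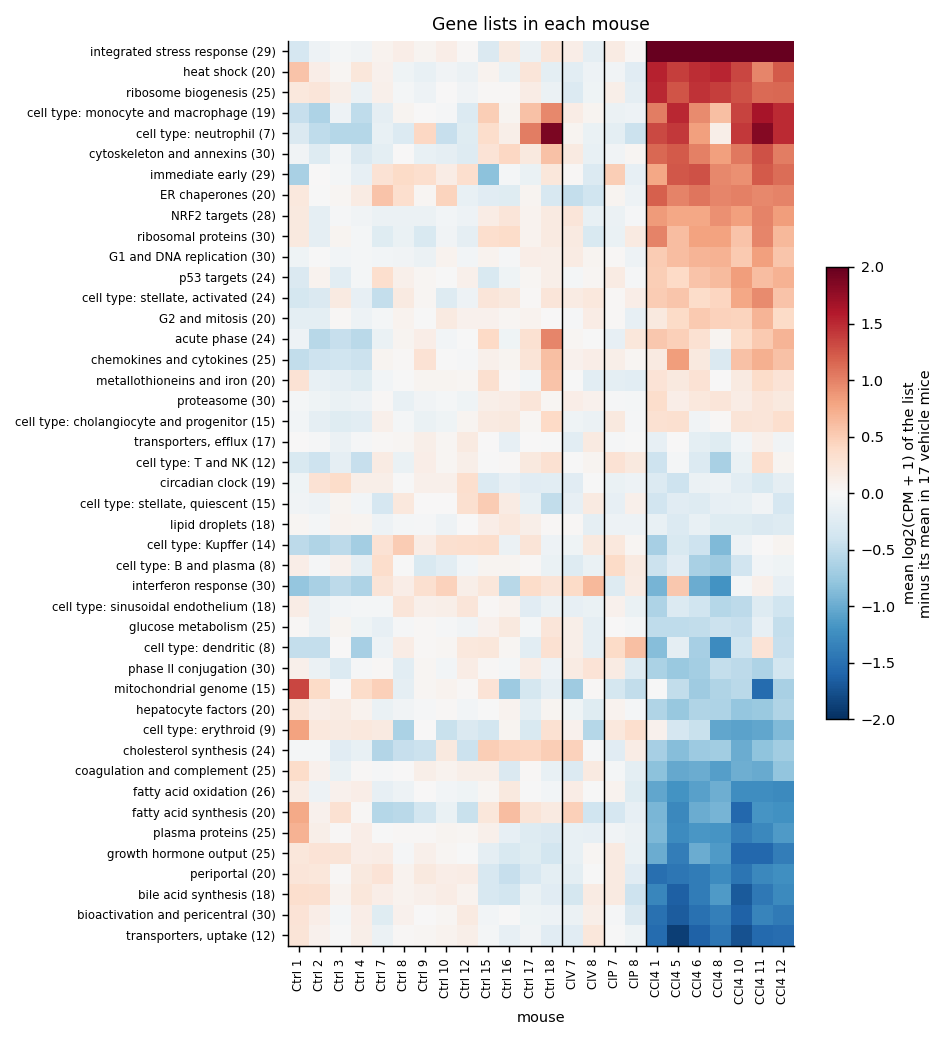
Rows are the 44 gene lists (number of tested members in brackets), columns the 24 mice by group, and colour is the mean log2(CPM + 1) of the list minus its mean over the 17 vehicle mice, cut at 2 in either direction. All 7 CCl4 columns are above the vehicle columns in the integrated stress response list (top, from 1.99 to 2.32), while the interferon list ranges from -1.19 in CCl4 mouse 8 to 0.54 in CCl4 mouse 5.

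Markers of other liver cells were read beside these changes. Of 19 tested monocyte and macrophage markers, 8 rose and 1 fell in both comparisons, and the list of 20 summed from 812 to 1195 CPM in CCl4 and from 475 to 835 CPM in vehicle mice. Much of the sum in CCl4 mice came from the members Lgals3 (from 239.6 to 383 CPM), Fn1 (from 260 to 300 CPM) and Cd63. Ccr2 lay there from 0.679 to 2.19 CPM. Cd63, a lysosomal membrane protein, lay from 118 to 195 CPM (median 135) and from 4.01 to 16.1 CPM (median 7.35) (4.01 ± 0.21), Cd68, of macrophage lysosomes, rose by 1.56 and Ccr2, the receptor that brings monocytes in, by 1.40. Ccr2 lost its call against saline without either saline mouse (2.89 without mouse 7 and 1.498 without mouse 8, edgeR's adjusted p = 0.07012 and 0.2611), and without CCl4 mouse 5, 10, 11 or 12. Fn1, fibronectin, also a hepatocyte product, fell by 0.60 and was not called in either comparison with library totals (edgeR's adjusted p = 0.6286 and 0.6698). Of 14 Kupffer cell markers, 1 rose and 3 fell (median -0.48, or 0.05 with library totals, beside -0.01 and 0.52 over all genes). Library totals gave 1 higher and 2 lower against all vehicles and 1 higher and 0 lower against saline. Clec4f, which is confined to Kupffer cells in the liver, lay from 36.3 to 102 CPM (median 49.5) in CCl4 and from 85.0 to 208 CPM (median 134) in vehicle mice (-1.32), and Vsig4, a complement receptor, fell by 1.06. Marco, a scavenger receptor, rose by 2.02. Against saline, edgeR's adjusted p without mouse 7 or 8 was 0.05784 or 0.06322 for Clec4f and 0.07235 or 0.1285 for Marco, whose log2 fold change was then 2.45 or 2.05, and that of Vsig4 without mouse 7 was 0.1583. With library totals Vsig4 was called in neither comparison and Clec4f not against saline. Of 16 neutrophil markers, 7 passed the filter against all vehicles and 3 of these rose in both, again only a description, since members near 0 in the controls could pass through CCl4 alone. The list summed from 14.6 to 88.1 CPM in CCl4 and from 4.38 to 79.7 CPM in vehicle mice. Ly6g, which defines neutrophils, had 0 counts in every vehicle mouse and a median of 0 in CCl4 mice. S100a9, a calcium-binding protein of neutrophils, rose by 2.15, and the gavage mouse 18 lay at 25.3 CPM, within the CCl4 range.

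T and NK cell markers (12 of 20 tested), B cell markers (8 of 15) and dendritic cell markers (8 of 14) had 0 rises in both comparisons and 0, 0 and 3 falls. They summed from 6.38 to 30.9 CPM, from 7.09 to 24.0 CPM and from 56.5 to 293 CPM in CCl4 mice and from 7.95 to 39.5 CPM, from 13.6 to 37.5 CPM and from 115 to 376 CPM in vehicle mice. Of 18 tested markers of the sinusoidal endothelium, 1 rose and 9 fell (median -0.66). With library totals the median was -0.13, with 2 higher and 3 lower against all vehicles and 1 higher and 0 lower against saline. Clec4g and Stab2, a lectin and a scavenger receptor of these cells, fell by 0.81 and 1.02, and Thbd, thrombomodulin, rose by 1.40. Clec4g lost its call against saline without either saline mouse, Stab2 without mouse 7 and Thbd without mouse 8. With library totals Clec4g was called in neither comparison and Stab2 not against saline. Of 24 tested markers of activated stellate cells, 7 rose and 1, Fn1, fell (median 0.20), beside 17.5% and 16.2% of all genes. The list of 25 summed from 532 to 720 CPM (median 567) in CCl4 and from 530 to 828 CPM (median 683) in vehicle mice. Acta2, smooth muscle actin, lay from 12.8 to 25.4 CPM (median 17.1) in CCl4 and from 0.659 to 7.05 CPM (median 3.96) in vehicle mice (2.22 ± 0.33), Timp1, which inhibits matrix proteases, and Thbs1, thrombospondin, rose by 3.26 and 3.93, and Col1a1, the collagen chain, was not called, lying from 5.83 to 12.6 CPM (median 8.10) and from 1.52 to 10.5 CPM (median 5.12). Of 15 quiescent stellate markers, 1 rose and 5 fell (median -0.44, or 0.13 with library totals, which gave 5 higher and 2 lower against all vehicles and 3 higher and 0 lower against saline).

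Of 15 tested markers of bile ducts and progenitor cells, 2 rose and 2 fell in both comparisons, beside 17.5% and 16.2% of all genes (median 0.08, or 0.61 with library totals). Krt8 and Krt18, keratins of hepatocytes and bile ducts, rose by 1.11 and 1.12, while Krt19 and Epcam, which mark bile ducts more strictly, were not called. Tspan8, a tetraspanin, lay from 0.0804 to 0.520 CPM (median 0.227) in CCl4 and from 0.0706 to 1.33 CPM (median 0.533) in vehicle mice and fell by 1.24, and Pkhd1, fibrocystin, a protein of primary cilia, fell by 0.57. Both lost the call against saline without either saline mouse, and in both comparisons with library totals, and Tspan8 lost that against all vehicles without CCl4 mouse 5, 6, 8 or 10. Single CCl4 mice also ended the saline call (Tspan8 without mouse 1, 5, 6, 8 or 10, Pkhd1 without mouse 1, 5, 6, 8 or 12), as did DESeq2 (adjusted p = 0.05223 and 0.05751). Of 9 tested erythroid markers, 0 rose and 5 fell, among them Car1, carbonic anhydrase 1 (-4.91), and Alas2, the red cell enzyme that starts heme synthesis (-1.56). The globin gene Hba-a1 was not called, lying from 20.7 to 156 CPM (median 35.2) in CCl4 and from 14.9 to 137 CPM (median 47.7) in vehicle mice. Of 25 tested chemokines and cytokines, 3 rose and 2 fell, beside 17.5% and 16.2% of all genes. Ccl7, a monocyte chemokine, had the largest rise (3.29) with overlapping groups and lost its call against saline without either saline mouse or without CCl4 mouse 5, 10, 11 or 12. Cxcl10, an interferon-induced chemokine, was higher against all vehicles (1.45) and not called against saline, and the cytokine genes Tnf and Il1b were not called. The part that shifts of these cell types have in the changes of the other lists was not tested.

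CCl4 was then set against each of the 6 other toxicants, all killed at 24 h, in 1 model of the 57 livers with 8 groups. Routes differed, and the labels do not match the doses. Of 17177 genes tested, 28.8% differed from CCl4 in ANIT, 24.7% in APAP, 52.1% in ConA, 30.9% in GAL, 33.4% in MDA and 28.4% in TAA. Of the 14209 genes, 385 (2.71%) were higher and 132 (0.929%) lower in CCl4 than in each of the 6 groups as well as in the vehicle mice. With library totals these counts were 630 and 47. Nupr1 had a mean of 406 CPM in CCl4 livers and means from 3.92 to 26.7 CPM in the 6 other groups. Aldh1l2, Slc7a11 and Flnc had means of 29.8, 22.3 and 15.0 CPM in CCl4 and from 0.0157 to 0.125 CPM, from 0.357 to 1.15 CPM and from 0.0311 to 0.726 CPM elsewhere. Trdc had a mean of 66.9 CPM in CCl4 and means from 0.0857 to 0.660 CPM elsewhere. Fam171b, a membrane protein, and Ccn4, a matricellular Wnt target, also stood above every group.

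Beside the 2.71% of all genes, the 385 took in 9 of 29 tested genes of the integrated stress response list, 7 of 30 ribosomal protein genes, 4 of 20 heat shock genes and 3 of 28 NRF2 targets. Sprr1a, Hspb1, Ddit3, Trib3, Abcc4, Hspa8, Anxa3, Mcm6 and Bmp6 were in this set. Hspb1 had a mean of 866 CPM in CCl4 and means from 16.5 to 338 CPM elsewhere. Other rises were not in it. Fosl1 and Atf3 had means of 32.3 and 152 CPM in CCl4 and means from 1.53 to 55.8 CPM and from 10.2 to 283 CPM in the other groups, so both ranges took in the CCl4 level. Cdkn1a and Hmox1 had means of 56.9 and 91.3 CPM in CCl4 and means from 95.3 to 299 CPM and from 129.9 to 442 CPM in the other groups. The difference from CCl4 passed the test in 3 of 6 groups for Cdkn1a and in 5 of 6 for Hmox1, lower in CCl4 each time.

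Among the 132 genes lower in CCl4 than in every group were Cyp2e1, Glul and Cyp2c37 of the 30 pericentral and bioactivation genes. Beside the 0.929% of all genes, the 132 also took in 5 of 26 fatty acid oxidation genes, 3 of 25 plasma protein genes and 2 of 18 lipid droplet genes. Cyp2e1 had a mean of 229 CPM in CCl4 and means from 792 to 3285 CPM in the other toxicant groups, and Glul one of 22.2 CPM and means from 105 to 681 CPM. Cyp2c40, Fitm1, Hamp2 and Cyp4a31 were also lower than in every group. Cyp4a31, a fatty acid hydroxylase, is not among the genes called in both comparisons with vehicle (-0.99 against all vehicles, adjusted p = 0.00136, and -0.34 against saline, adjusted p = 0.505), and its means were from 23.3 to 90.3 CPM in the other toxicant groups, beside 12.9 CPM in the vehicle mice. With library totals the Cyp4a31 value against all vehicles was -0.44 (edgeR's adjusted p = 0.1296), and against the 4 saline mice alone it was -0.48 (edgeR's adjusted p = 0.199). Mir8114, whose short annotation makes its counts uncertain, was listed at 0 in all 7 CCl4 mice.

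**Figure D4:**
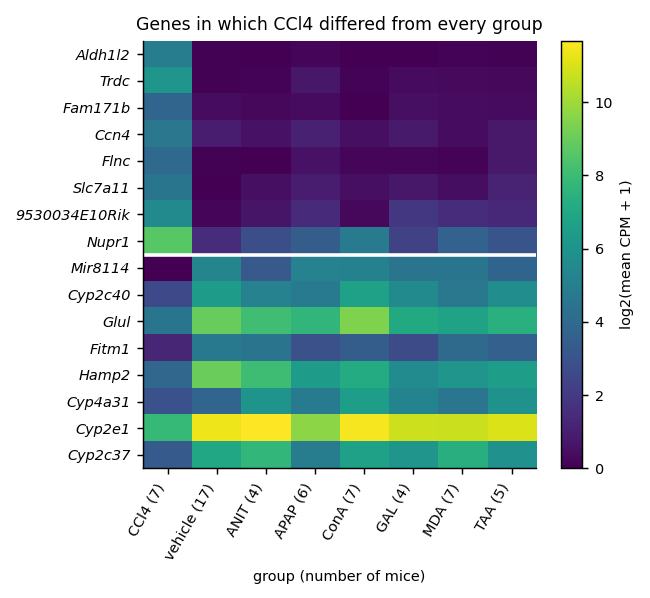
Rows are the 8 genes with the clearest rise (above the white line) and the 8 with the clearest fall in CCl4 against each of the 6 other toxicant groups, columns are groups with their number of mice, and colour is log2 of the mean CPM plus 1. The CCl4 column is the brightest in the upper 8 rows and the darkest in the lower 8.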

How the data were processed

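Bulk mRNA-seq of 57 livers gave 1 table of 54307 genes, deposited by the authors as estimated counts with fractions. Per the submitters' processing notes, Salmon 1.6.0, R 4.1.3 and GRCm39 were used. Whether the estimated counts were scaled by transcript length is not given in the sources used here. They were rounded, genes of low count were removed with edgeR's filterByExpr separately in each comparison, and libraries were scaled by TMM. The main test was edgeR 4.0.16 (R 4.3.3), a two-sided quasi-likelihood test with Benjamini-Hochberg adjustment over all genes tested, called at an adjusted p under 0.05. Errors are standard errors of the log2 fold change, derived from the fold change and its F statistic.

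CCl4 was compared with all 17 vehicle mice, with the 2 intraperitoneal saline mice, and, in 1 model of 8 groups, with each of 6 other toxicants. Symbols came from GENCODE M21 and covered 51482 genes. Of 959 listed genes, 958 were matched and 889 tested. Named genes were the 15 largest rises and 15 largest falls called in both comparisons without overlap and at 10 CPM or more, 5 further in each direction at 200 CPM or more, the extreme and the highest members of each list with up to 4 more, and 8 in each direction apart from every other toxicant. Before the first 2 of these rankings, genes with clone, predicted-gene or microRNA names (Gm with digits, Rik, Mir, AC or ENSMUSG) were dropped. Some of the genes this rule gives are not reported here. The members and lists were chosen with earlier results of these data known. Depth, from 13826343 to 35075809 estimated counts in these 24 livers, limits genes near 1 CPM. The fits were tested on simulated data. Alternatives were limma 3.58.1, DESeq2 1.42.0, other scalings, filters and controls, and leaving out each CCl4 mouse and each intraperitoneal saline mouse in turn.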

Additional observations from a re-analysis of the deposited data

Results flagged for a closer look

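In 9 of the 180 genes checked, 1 of the 7 CCl4 mice lay far from the other 6 by Dixon's test at the 95% level, a count near the share of about 1 in 20 that chance alone flags. Sqle lay at 12.25 CPM and Srebf1 at 64.8 CPM in CCl4 mouse 10, both below the others, which lay from 14.5 to 15.7 and from 117 to 149 CPM. Slc1a2 lay at 10.1 CPM in the same mouse, above the others (from 1.55 to 4.12 CPM). Clec4f lay at 102 CPM and Serpinc1 at 2063 CPM in CCl4 mouse 11, above the others (from 36.3 to 57.9 and from 1260 to 1601 CPM). Cyp2c40 lay at 11.0 CPM and Epcam at 2.10 CPM in CCl4 mouse 1, Sds at 96.6 CPM in CCl4 mouse 12 and Mki67 at 1.25 CPM in CCl4 mouse 5, each above the others.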

How the results depend on the processing

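With library totals in place of TMM, 7149 genes were higher and 1736 lower against all vehicles, 4565 and 1100 against intraperitoneal saline, 4349 and 1030 in both, and 630 and 47 apart from the 6 other toxicants. By construction, a log2 fold change of at least 1 left fewer genes, 3115 against all vehicles (1375 higher, 1740 lower), 3112 against saline (1649 and 1463) and 2372 in both (1112 and 1260). Leaving out single CCl4 mice (no control was left out singly here) gave from 7247 to 7552 called against all vehicles (from 3399 to 3795 higher, from 3622 to 3848 lower), from 3015 to 5430 against saline when intraperitoneal saline mice were also left out singly (from 1459 to 2830 and from 1556 to 2600), from 2859 to 5014 in both (from 1348 to 2552 and from 1494 to 2462) and from 465 to 507 apart (from 345 to 390 and from 111 to 136). The lowest values in the saline comparison, and 2859 and 1348 in both, came without intraperitoneal saline mouse 8, and 1494 without mouse 7. With the mouse number as a replicate block, 4926 genes were called against all vehicles, 2334 of them higher, and 4782 were called with the same sign without the block. The labels do not say that a number pairs mice, and the correlation of deviations between mice of 1 number ran from -0.152 to 0.172. DESeq2 called 7748 genes and limma 7750 against all vehicles. Without intraperitoneal saline mouse 8 and intravenous saline mouse 8, an alternative chosen after seeing the data like that of transcripts of at least 500 nt, 7827 genes were called, and with the length limit 7499.

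Of the named genes, Cyp1a2 was the 1 called gene that changed sign under any alternative run, with a log2 fold change of 0.12 against all vehicles with library totals. Herpud1, Socs3, Mt2, Fos, Tspan8 and Ciart each lost the call against all vehicles when 1 or more single CCl4 mice were left out. In the saline comparison, where 1 control library then remains, 29 named genes lost the call without mouse 7 and 24 without mouse 8, all with the same sign, among them Gclc, Cyp2a5, Marco, Clec4f, Ccl7, Ccr2, Cd74 and Thrsp without either. Gclm, Ftl1, Actb, Hp, Xbp1, Polr1a and Col1a1, not called with TMM, passed against all vehicles with library totals, and Fn1, Herpud1, Clec4g, Vsig4, Cd74, Fos, Egr1, Tspan8, Pkhd1, Cyp1a2, Cyp4a31 and Cyp7a1 no longer passed. Calls against all vehicles were also lost by Bax, Ccr2, Cxcl10, Cyp1a2, Cyp4a31, Cyp7a1, Mki67, Rps2 and Tspan8 with the 4 saline mice as controls, by Calr, Ccl7, Ccr2, Ciart, Cyp1a2, Cyp2a5, Cyp7a1, Gstp1, Mki67, Pcna, Pkhd1, Rps2, Socs3 and Tspan8 with the replicate block, by Herpud1, Ciart, Socs3 and Mt2 with the 13 gavage mice as controls, by Fos, Herpud1 and Cyp7a1 with limma, and by Herpud1, Mt2 and Tspan8 without a filter on low counts. The causes were not tested. Depth limits genes near 1 CPM, where a library holds few counts.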

Other observations

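Of 30 tested interferon response genes, 2 rose and 2 fell in both comparisons, beside 17.5% and 16.2% of all genes. The median log2 fold change against all vehicles was -0.43, or 0.12 with library totals, beside -0.01 and 0.52 over all genes. Oasl1, an antiviral OAS-like protein, lay from 23.3 to 50.9 CPM (median 36.5) in CCl4 and from 7.36 to 22.3 CPM (median 15.6) in vehicle mice (1.26 ± 0.18, edgeR's adjusted p = 2.11e-06), with no overlap. Stat2, a transducer of interferon signals, fell by 0.96. Against saline, edgeR's adjusted p of Oasl1 was 0.06736 without mouse 7, and that of Stat2 0.1455 without mouse 8 and 0.1912 with library totals. Isg15, a ubiquitin-like interferon target, lay from 10.3 to 77.1 CPM (median 23.0) in CCl4 and from 9.52 to 51.8 CPM (median 33.8) in vehicle mice and was not called. The mean of the list in single mice, relative to the vehicle mean, went from -1.19 to 0.54 on the log2 scale in CCl4 mice and from -0.77 to 0.65 in vehicle mice.

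Of 19 tested circadian clock genes, 2 rose and 4 fell in both comparisons. The median log2 fold change against all vehicles was -0.43, or 0.11 with library totals, which gave 7 higher and 3 lower against all vehicles and 5 higher and 2 lower against saline. Dbp, an output factor of the clock, lay from 0.268 to 0.871 CPM (median 0.636) in CCl4 and from 0.732 to 13.4 CPM (median 2.90) in vehicle mice (-2.61 ± 0.55, edgeR's adjusted p = 0.000238), and was lower in CCl4 than in each of the 6 other toxicant groups. Ciart, a clock repressor, lay from 3.08 to 8.07 CPM (median 3.81) in CCl4 and from 0.158 to 7.91 CPM (median 1.30) in vehicle mice (1.37). Without CCl4 mouse 6, edgeR's adjusted p of Ciart against all vehicles was 0.05436, and without saline mouse 8 that of Dbp against saline was 0.07167. The labels give no hour of dosing or of death for single mice, and a part of this in the values was not tested. Of the metallothioneins, Mt2 rose by 1.14 and lost its call against all vehicles without CCl4 mouse 1, 6, 10 or 12 (edgeR's adjusted p from 0.05126 to 0.06785), while Mt1 was higher against saline (1.68, edgeR's adjusted p = 0.000991) and not called against all vehicles (0.72, edgeR's adjusted p = 0.0556). Cd74, the invariant chain of antigen-presenting cells, fell by 0.88. Without saline mouse 7 or 8, its adjusted p by edgeR against saline was 0.1806 or 0.1395, and with library totals that against all vehicles was 0.2363. Its call against saline was also lost without CCl4 mouse 1, 6, 10 or 12 (edgeR's adjusted p from 0.05757 to 0.06828) and with library totals (edgeR's adjusted p = 0.1506).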
